A study of Mus musculus with 6 samples.

Results

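Heparanase, its relative heparanase 2 and 8 core proteins of heparan sulfate proteoglycans were followed in pancreatic islets with and without the ER-associated degradation factor Sel1L in β cells. The genes were Hpse, Hpse2, the syndecans Sdc1 to Sdc4, the glypicans Gpc1 and Gpc4, the perlecan gene Hspg2 and the agrin gene Agrn. A probe set belonged to the group when the platform annotation gave it 1 of these symbols and no other. All 10 genes, of 22180 named ones, were found in 13 of the 41345 probe sets of the table. Hpse, Sdc1 and Gpc1 each had a brighter and a dimmer probe set, and the other 7 genes had 1 each. The group was formed around Hpse because its value was lower in Sel1L-deficient islets on these same arrays, so the genotype differences of all 10 genes are given as descriptions, without a p-value, and support nothing further.

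Heparan sulfate is a sulfated sugar chain attached to core proteins on the cell surface and in basement membranes, where it holds growth factors, chemokines and matrix proteins. Heparanase is the mammalian endoglycosidase that cuts these chains into shorter fragments, and heparanase 2 is a relative without that activity which binds the chains. Mouse β cells are known to hold large stores of heparan sulfate inside the cell, and leukocytes that invade islets in autoimmune diabetes use heparanase to pass the islet basement membrane.

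Both groups were C57BL/6J mice aged 5 weeks, labelled female, with 3 arrays each. The wildtype group were Sel1L f/f littermates. The deficient group (Sel1LIns1) were Sel1L f/f mice that also carried Ins1Cre, a Cre recombinase placed at the insulin gene Ins1. The floxed alleles were thus shared by both groups, while Ins1Cre was carried by the deficient group only. Effects of the Ins1Cre allele and of Sel1L loss cannot be told apart here. The driver restricts deletion to cells that use Ins1, and an islet also holds cells in which Sel1l stays intact. Islets were digested out, hand-picked and kept in culture overnight before RNA was taken, and values are the deposited RMA values on the log2 scale, where 1 unit is a 2-fold step. The labels do not say whether an array held 1 animal or several, so error terms measure the spread between these samples.

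Sel1l read 8.46, 8.56 and 8.76 on the wildtype arrays and 7.73, 7.65 and 7.68 on the deficient arrays, and so followed the labels. Whether its probes fall in the deleted exons was not analysed here. Array medians lay between 3.08 and 3.16, and no 2 arrays were identical. The third array of each genotype went against the label female: the mean of the Y-linked genes was 6.75 and 6.36 on these 2 arrays against 1.44 to 1.84 on the other 4. Member differences on those other 4 arrays are therefore given beside the results. The islet label was borne out by the defining endocrine genes, with Ins2 at 10.5 to 11.2, Gcg at 12.5 to 12.7, Sst at 12.4 to 12.6 and Ppy at 11.9 to 12.3 over all 6 arrays.

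Promoter sequence was matched by symbol in a RefSeq table of build GRCm38.p6, which held 8 of the 10 genes; Sdc2 and Gpc1 had no entry. The 250 bases upstream of the start of Hpse and of Sdc4 are shown because these were the members with the largest difference in each direction. Both are written 5′ to 3′ on the minus strand of the genome, Hpse from chr5:100719717-100719966 and Sdc4 from chr2:164443189-164443438, with the GC box GGGCGG in capitals.
Hpse: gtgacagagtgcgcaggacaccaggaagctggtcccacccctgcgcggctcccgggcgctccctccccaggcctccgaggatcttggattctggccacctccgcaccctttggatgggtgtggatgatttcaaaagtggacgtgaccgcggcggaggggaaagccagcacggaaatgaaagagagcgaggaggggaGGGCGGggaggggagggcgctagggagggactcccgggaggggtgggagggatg
Sdc4: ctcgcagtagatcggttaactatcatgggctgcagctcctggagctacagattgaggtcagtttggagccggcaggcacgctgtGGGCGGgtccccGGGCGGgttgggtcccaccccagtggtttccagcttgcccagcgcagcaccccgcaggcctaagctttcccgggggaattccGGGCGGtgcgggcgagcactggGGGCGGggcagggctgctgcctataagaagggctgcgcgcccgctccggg

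The Hpse window held 1 GC box and the Sdc4 window 4, searched on both strands. A GC box was present in 9 of the 9 windows of the 8 members, Agrn having 2 windows, and in 32.7% of all 32851 windows of this length in the table. The windows of Hpse and Sdc4 were rich in G and C, at 66.8% and 68.0%, against a median of 52.4% over all windows. The part of base composition in the matches to these letters was not tested. The Hpse window held no match to GCGNGGGCG, a sequence bound by EGR factors, or to TGCTGA, which is part of the recognition site of MAF factors. These letters occurred in 4.7% and 16.1% of all windows. A match is a description of the letters and not a binding site.

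**Figure D1:**
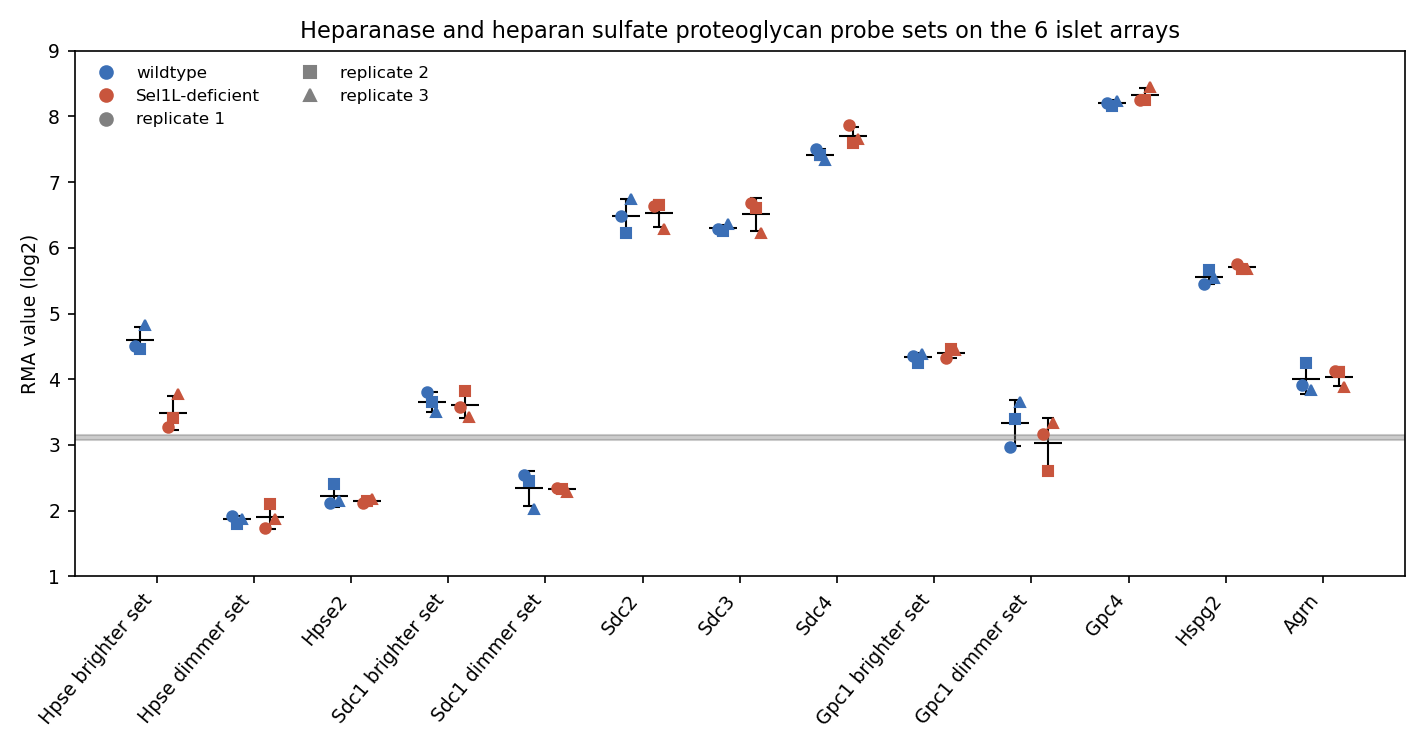
RMA values (log2, vertical axis) of the 13 probe sets on 3 wildtype and 3 Sel1L-deficient arrays. Points are arrays, horizontal bars group means, error bars SD over 3 arrays, and the grey band the array medians of 3.08 to 3.16. The brighter Hpse probe set is the one whose groups lie far apart, while most others overlap.

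Heparanase itself was lower in Sel1L-deficient islets on 1 of its 2 probe sets. The brighter probe set, 17450142, read 4.51, 4.46 and 4.82 in wildtype islets and 3.28, 3.41 and 3.78 in Sel1L-deficient islets. The lowest wildtype value was thus above the highest deficient value, and the third array was the highest of its genotype in both groups. The means were 4.60 ± 0.20 and 3.49 ± 0.26 (SD, n = 3 each), a log2 difference of -1.11 ± 0.16 (SE), or 2.16-fold lower, with a 95% interval of -1.48 to -0.74. The deficient mean lay close to the array medians and was not separated from background, so the fold is not exact.

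The other Hpse probe set, 17548411, did not follow the first. It read 1.92, 1.80 and 1.88 in wildtype islets and 1.73, 2.10 and 1.88 in deficient islets. All 6 values were below the array medians and the groups overlapped, with a difference of 0.04 ± 0.12 (SE), -0.06 without deficient replicate 2 and 0.06 on the 4 arrays without Y-linked transcripts. At that level the probe set cannot be told apart from background, and which part of the transcript either probe set covers was not analysed here.

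Across the 13 probe sets, 1 was lower past a limma adjusted p of 0.05, the brighter Hpse one, and 0 were higher. Of all 23521 probe sets with 1 gene symbol, 0.221% passed this threshold, 0.136% as lower and 0.085% as higher. An unadjusted limma p under 0.05 was found for 2 of the 13 and for 2212 of the 23521. Nothing is read from either member count, because Hpse was chosen on this contrast. When single wildtype arrays were left out in the order 1, 2, 3, the Hpse difference was -1.15, -1.18 and -0.996. When the deficient arrays were left out in that order, it was -1.003, -1.07 and -1.25. It missed the threshold in each of these 6 fits. On the 4 arrays without Y-linked transcripts it was -1.14 and missed it as well, in a fit that called 0 probe sets.

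Markers of β cells were lower on the same arrays. Of the 10 measured of 11 listed β-cell markers, 0 rose and 5 fell by limma. Over all 22180 genes 0.234% passed in either direction. The markers were uneven, with differences from -2.11 to -0.07. Their summed linear signal ranged from 12591 to 14580 in wildtype and from 9295 to 9750 in deficient islets. Leukocytes are a known source of heparanase, and of their 10 markers 0 rose and 0 fell. The summed leukocyte signal ranged from 243 to 327 and from 238 to 257, with the defining gene Ptprc near the array medians at 3.24 and 3.30. In bulk islets fewer cells of a type and less RNA per cell cannot be told apart, and the part of either marker list in the Hpse difference was not tested.

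Heparanase 2 was near background in both genotypes. Hpse2 read 2.12, 2.41 and 2.15 in wildtype islets and 2.11, 2.15 and 2.18 in deficient islets. All values were below the array medians and the groups overlapped, with a difference of -0.08 ± 0.11 (SE). It was 0.02 without wildtype replicate 2, -0.13 without wildtype replicate 1 and -0.13 on the 4 arrays without Y-linked transcripts.

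The syndecans are transmembrane proteoglycans that act as co-receptors for growth factors and can be shed from the cell surface. Sdc4, the widely expressed member found at focal adhesions, read 7.51, 7.41 and 7.33 in wildtype islets and 7.86, 7.59 and 7.66 in deficient islets. The groups did not overlap, and deficient replicate 1 stood highest. The difference was 0.29 ± 0.11 (SE), or 1.22-fold, with an interval of 0.02 to 0.55, and it was 0.26 on the 4 arrays without Y-linked transcripts.

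Sdc3, the syndecan best known from neural tissue, read 6.28, 6.25 and 6.36 in wildtype islets and 6.69, 6.61 and 6.23 in deficient islets. Deficient replicate 3 lay below every wildtype array while the other 2 deficient arrays lay above them, so the groups overlapped. The difference was 0.21 ± 0.14 (SE) over all arrays, 0.12 without deficient replicate 1, 0.35 without deficient replicate 3 and 0.38 on the 4 arrays without Y-linked transcripts.

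Sdc2, abundant in mesenchymal and endothelial cells, overlapped between genotypes. It read 6.48, 6.22 and 6.74 in wildtype islets and 6.64, 6.65 and 6.29 in deficient islets. The third array was the highest of its group in wildtype and the lowest in deficient islets. The difference was 0.05 ± 0.16 (SE), -0.08 without wildtype replicate 2, 0.17 without wildtype replicate 3 and 0.29 on the 4 arrays without Y-linked transcripts.

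Sdc1, the syndecan of epithelia and plasma cells, was dim. Its brighter probe set, 17273948, read 3.81, 3.65 and 3.50 in wildtype islets and 3.58, 3.81 and 3.43 in deficient islets. Its dimmer one, 17547680, lay at 2.03 to 2.54 on all arrays, below their medians. Both overlapped between genotypes, with differences of -0.04 ± 0.14 and -0.02 ± 0.14 (SE), and both changed sign when a single array was left out, the first to 0.04 without deficient replicate 3 and the second to 0.08 without wildtype replicate 1. On the 4 arrays without Y-linked transcripts they were -0.03 and -0.15.

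Glypicans are held to the outer membrane leaflet by a lipid anchor and modulate Wnt, hedgehog and FGF signals. Gpc4 read 8.20, 8.15 and 8.24 in wildtype islets and 8.26, 8.26 and 8.45 in deficient islets. The groups did not overlap, though only deficient replicate 3 stood clearly above the wildtype arrays. The difference was 0.12 ± 0.11 (SE), with an interval of -0.12 to 0.36. It was 0.06 without deficient replicate 3 and 0.08 on the 4 arrays without Y-linked transcripts.

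The probe sets of Gpc1 disagreed in sign. The brighter one, 17215820, read 4.35, 4.25 and 4.39 in wildtype islets and 4.32, 4.46 and 4.44 in deficient islets, a difference of 0.07 ± 0.10 (SE). The dimmer one, 17548970, read 2.96, 3.39 and 3.66 in wildtype islets and 3.16, 2.60 and 3.34 in deficient islets, a difference of -0.30 ± 0.23 (SE). Both overlapped between genotypes, the second lay around the array medians, and its interval of -0.82 to 0.22 was the widest of the 13. Leaving out 1 array moved the first from 0.04, without wildtype replicate 2, to 0.12, without deficient replicate 1. It moved the second from -0.49, without wildtype replicate 1, to -0.09, without deficient replicate 2. On the 4 arrays without Y-linked transcripts they were 0.09 and -0.29.

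Perlecan and agrin are large secreted proteoglycans of basement membranes, agrin being also the organiser of the nerve-muscle synapse. Hspg2 read 5.45, 5.67 and 5.55 in wildtype islets and 5.75, 5.68 and 5.68 in deficient islets. The groups did not overlap, but wildtype replicate 2 lay almost level with deficient replicates 2 and 3. The difference was 0.15 ± 0.10 (SE), with an interval of -0.09 to 0.39. It was 0.09 without wildtype replicate 1 and 0.16 on the 4 arrays without Y-linked transcripts. Agrn read 3.91, 4.24 and 3.84 in wildtype islets and 4.13, 4.11 and 3.88 in deficient islets. Its groups overlapped, and its difference of 0.04 ± 0.14 (SE) became -0.04 without wildtype replicate 3 and 0.17 without wildtype replicate 2, and was 0.04 on the 4 arrays without Y-linked transcripts.

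**Figure D2:**
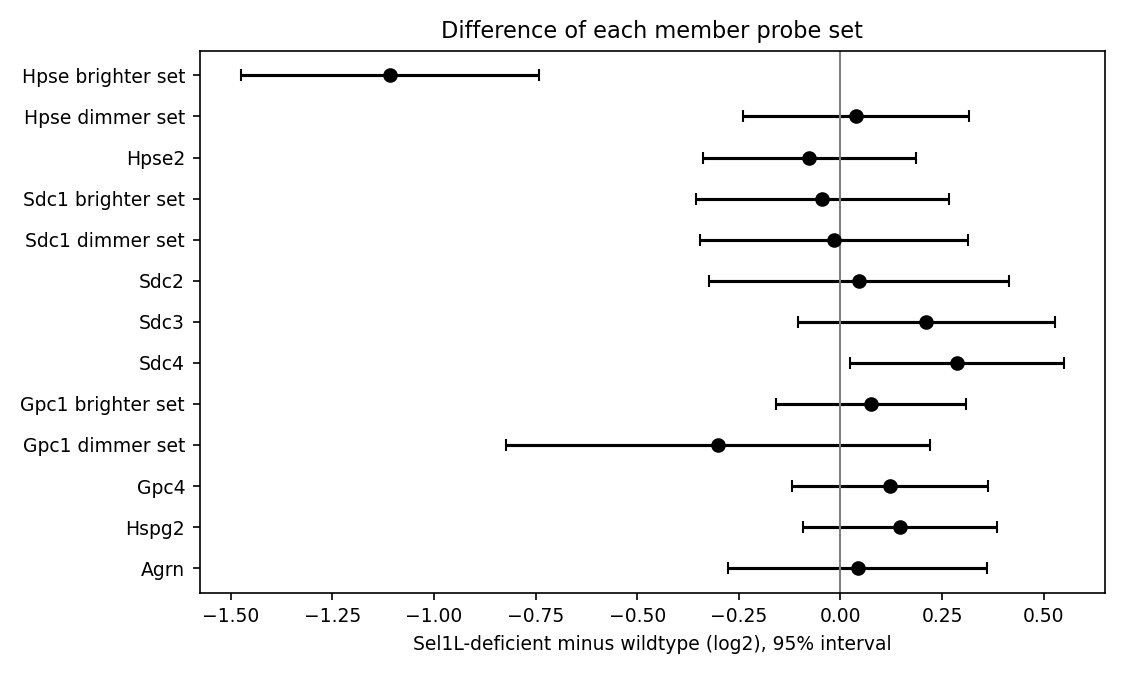
Sel1L-deficient minus wildtype difference (log2, horizontal axis) of each of the 13 probe sets, with the 95% interval of the limma fit as bars. The Hpse difference of -1.11 stands apart from the other 12, which lie between -0.30 and 0.29, and the interval of Sdc4 is the only other one that leaves out 0.

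Over the 13 probe sets 8 differences were positive and 5 negative, with a median of 0.04 beside 0.00319 over all 23521. The values of 4 did not overlap between genotypes: Sdc4, Gpc4 and Hspg2 were higher and the brighter Hpse probe set lower. The values of 15% of all probe sets did not overlap, 7.38% as higher and 7.61% as lower. Markers of vessel and stromal cells were also higher on the deficient arrays: 11 of 12 endothelial and 12 of 12 mesenchymal markers had positive differences, with medians of 0.43 for each list. None passed the limma threshold (0 rose and 0 fell in both lists). An unadjusted p under 0.05 was found for 7 and 4 of them, beside 2212 of all 23521 probe sets. Their summed linear signal ranged from 1228 to 1621 in wildtype and from 1808 to 2076 in deficient islets for endothelial markers, and from 413 to 572 and from 636 to 728 for mesenchymal markers. Pecam1 stood at 6.49 ± 0.21 and 6.93 ± 0.18 and Col1a1 at 5.92 ± 1.09 and 6.24 ± 0.66 (SD, n = 3 each). The part of these cells in the values of Sdc4, Gpc4 and Hspg2 was not tested.

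Signals of the other cells of the preparation were compared as well. Of the acinar markers, 0 of the 5 measured rose or fell, their summed signal spanning 3195 to 7879 in wildtype and 1905 to 7210 in deficient islets, and Cpa1 was highest on the third array of each genotype, at 10.4 and 10.1. Among duct markers 0 of 5 passed, with sums of 265 to 315 and 235 to 287 and Krt19 at 3.69 and 3.21. Among α-cell markers 0 of the 3 measured passed (9453 to 9761 and 9982 to 10477), among δ-cell markers 0 of 4 (6014 to 6507 and 5957 to 6279) and among PP-cell markers 0 of 2 (8447 to 9307 and 9578 to 11108). The α-cell and PP-cell sums were thus higher on every deficient array than on any wildtype array, while the acinar, duct, δ-cell and Schwann sums overlapped. Taken singly, 0 of the 3 α-cell and 1 of the 2 PP-cell markers had values that did not overlap between genotypes, beside 15% of all probe sets. Among Schwann markers 0 of 4 passed (33.5 to 41.5 and 32.2 to 47.1), with Sox10 at 3.09 and 3.33. In all 6 of these lists limma gave 0 markers at an unadjusted p under 0.05.

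The genes whose profile over the 6 arrays was most like that of the brighter Hpse probe set were Pcsk1, Phactr1, Cbs, Tent5a and Fhdc1. Likeness was the root mean square difference between values centred on their own mean. It was taken over 11287 genes brighter than the median of all values. Symbols of the Gm, Rik, LOC, BC, AI, AW and Olfr forms were left out of these. The difference was 0.058 for Pcsk1, 0.067 for Phactr1, 0.098 for Cbs, 0.143 for Tent5a and 0.147 for Fhdc1. Pcsk1, the convertase that processes proinsulin, read 9.80, 9.78 and 10.1 in wildtype islets and 8.72, 8.69 and 9.10 in deficient islets. Phactr1, a regulator of actin and protein phosphatase 1, read 8.15, 8.26 and 8.50 and then 7.11, 7.19 and 7.53. In both, as in Hpse, the third array was the highest of its genotype. Cbs, which makes cystathionine from homocysteine, differed by -1.14, Tent5a, a poly(A) polymerase, by -1.04, and Fhdc1, a formin, by -1.01. With 2 groups of 3 arrays such a profile is mostly the genotype difference itself, so likeness here describes these arrays only.

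**Figure D3:**
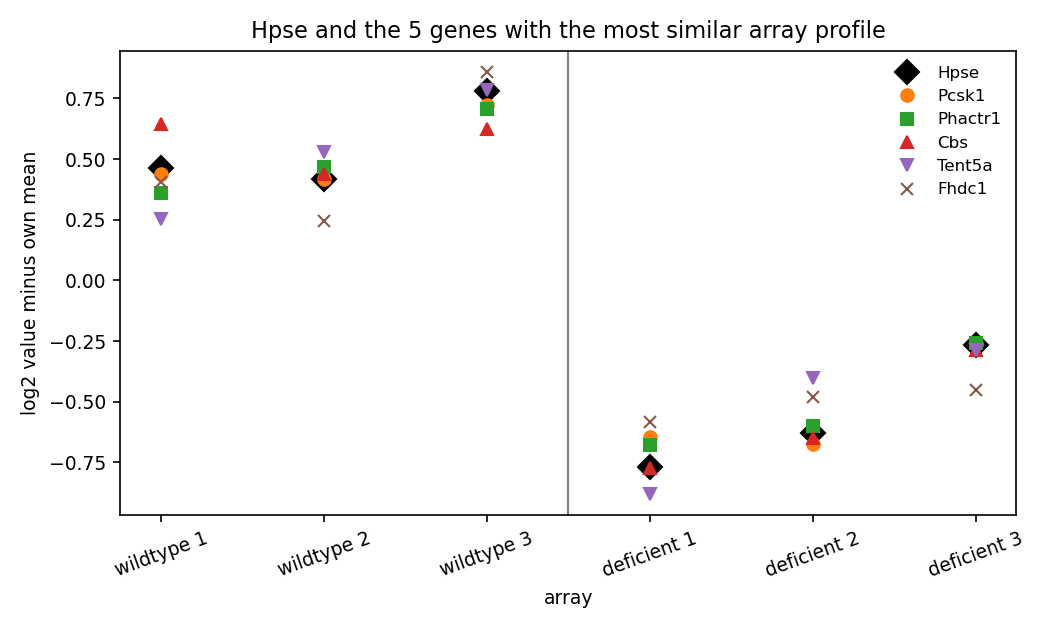
Values of Hpse (black diamonds) and the 5 most similar genes, each minus its own mean over the 6 arrays (log2, vertical axis), on the wildtype and Sel1L-deficient arrays (horizontal axis). Hpse, Pcsk1 and Phactr1 lie almost on top of each other, with the third array highest in both genotypes.

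The rest of the heparan sulfate pathway was taken from 6 lists with 83 genes, of which 80 were measured, each by its brightest probe set. By limma 0 rose and 0 fell, and over all 22180 genes 0.234% passed. An unadjusted limma p under 0.05 was found for 7 of the 80, beside 2212 of all 23521 probe sets. The genes named below are the 2 with the largest difference in each list among those brighter than the median of all values.

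**Figure D4:**
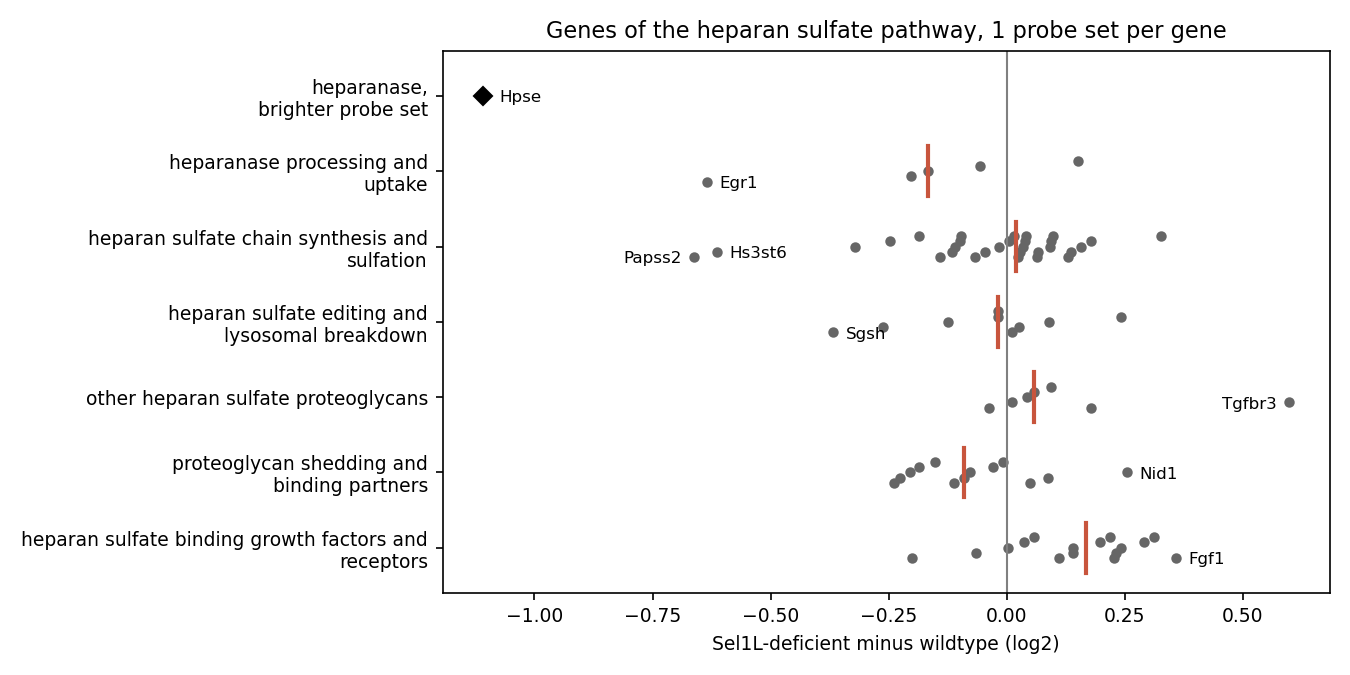
Sel1L-deficient minus wildtype difference (log2, horizontal axis) of the 80 measured pathway genes, 1 point per gene, with the median of each of the 6 lists as a red bar (vertical offsets only separate points). The Hpse difference of -1.11 is drawn on top for scale. Papss2, Hs3st6 and Egr1 lie lowest and Tgfbr3 highest, while the list medians lie between -0.17 and 0.17.

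Genes that process or take up heparanase had 0 of 5 past the threshold in either direction (limma, 0 at an unadjusted p under 0.05), with a median of -0.17 beside 0.00044 over all genes. The list median ranged from -0.22 without wildtype replicate 1 to -0.05 without deficient replicate 1. The list held Ctsl, whose product cathepsin L cleaves the precursor into the active enzyme, with a difference of -0.06. Egr1, a transcription factor known to act on the heparanase promoter, read 7.35, 8.79 and 7.38 in wildtype islets and 6.79, 8.19 and 6.63 in deficient islets. Its second array was more than 1 unit above the others in both genotypes, and the groups overlapped, with a difference of -0.64 ± 0.48 (SE). Igf2r, a receptor that carries lysosomal enzymes, differed by -0.20 ± 0.11 (SE).

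Genes of chain synthesis and sulfation had 0 of 30 past the threshold in either direction, with a median of 0.02 and with 4 at an unadjusted p under 0.05. That median became -0.02 without wildtype replicate 2 and -0.01 without deficient replicate 2. Papss2, which makes the sulfate donor PAPS, read 10.8, 10.6 and 10.6 in wildtype islets and 10.2, 10.0 and 9.73 in deficient islets. The groups did not overlap, and the difference was -0.66 ± 0.14 (SE; limma adjusted p = 0.192). Hs3st6, a 3-O-sulfotransferase, read 4.21, 4.42 and 4.42 and then 3.55, 3.69 and 3.97, a difference of -0.61 ± 0.14 (SE; limma adjusted p = 0.2), also without overlap. The remaining 2 with an unadjusted p under 0.05 were named after their values were seen: Ugdh, which makes UDP-glucuronic acid, at -0.32, and the N-deacetylase and N-sulfotransferase gene Ndst4 at 0.33. The chain polymerase genes Ext1 and Ext2 differed by 0.02 and -0.02, with 95% intervals of -0.21 to 0.24 and -0.26 to 0.23.

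Genes that edit or break down the chains had 0 of 9 past the threshold, with 1 at an unadjusted p under 0.05 and a median of -0.02, which was -0.08 without wildtype replicate 2 and 0.03 without wildtype replicate 3. Sgsh, the lysosomal sulfamidase that removes N-sulfate groups, read 5.70, 5.68 and 5.63 in wildtype islets and 5.23, 5.50 and 5.18 in deficient islets. The groups did not overlap, with a difference of -0.37 ± 0.12 (SE; limma adjusted p = 0.37). Gusb, the lysosomal β-glucuronidase, differed by -0.26 ± 0.13 (SE; limma adjusted p = 0.583). Of the extracellular 6-O-endosulfatases, Sulf2 differed by 0.24 and Sulf1 by -0.02, both with overlapping groups.

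Proteoglycans outside the 10 genes had 0 of 7 past the threshold, with 1 at an unadjusted p under 0.05 and a median of 0.06. That one was Tgfbr3, betaglycan, a TGF-β co-receptor that can carry heparan sulfate. It read 5.07, 5.14 and 4.95 in wildtype islets and 5.57, 5.56 and 5.82 in deficient islets. The groups did not overlap, with a difference of 0.60 ± 0.12 (SE; limma adjusted p = 0.158). Srgn, the serglycin of secretory granules in blood cells, differed by 0.18 ± 0.21 (SE). The glypicans Gpc2, Gpc3 and Gpc5 lay below the array medians, and leaving out wildtype replicate 3 brought the list median to 0.02, leaving out wildtype replicate 1 to 0.11. It was 0.12 on the 4 arrays without Y-linked transcripts.

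Shedding enzymes and binding partners had 0 of 13 past the threshold (limma, 0 at an unadjusted p under 0.05), with a median of -0.09, which ranged from -0.14 without wildtype replicate 3 to -0.05 without wildtype replicate 1. Nid1, the basement membrane protein nidogen that binds perlecan, differed by 0.25 ± 0.13 (SE), and Adam10, a membrane protease, by -0.20 ± 0.10 (SE). The syntenin gene Sdcbp, whose product binds the tails of syndecans, differed by -0.09. Lrp4 and Musk, the receptor pair of agrin, differed by 0.09 and -0.01, Musk lying below the array medians.

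Growth factors that bind heparan sulfate and their receptors had 0 of 16 past the threshold, with 1 at an unadjusted p under 0.05. That gene was Ptn, named after its values were seen, which lay below the array medians. The list median was 0.17, and 14 of 16 differences were positive, beside 50.1% of all 22180 genes. Only 9 of the 16 were brighter than the median of all values, so part of this count comes from dim probe sets. With only probe sets above that median kept, the list median was 0.20. The list median became 0.10 once wildtype replicate 3 was left out and 0.22 without deficient replicate 2. It was 0.10 on the 4 arrays without Y-linked transcripts. Fgf1 read 3.94, 4.12 and 4.80 in wildtype islets and 4.66, 4.81 and 4.46 in deficient islets, with wildtype replicate 3 as high as the deficient arrays and a difference of 0.36 ± 0.22 (SE). Its receptor Fgfr1 differed by 0.31 ± 0.14 (SE; limma adjusted p = 0.533). Vegfa, which β cells secrete to maintain islet vessels, differed by -0.20.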

How the data were processed

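The deposited table holds log2 values that the authors made with RMA, per the submitters' processing notes; its version, filters and log base are not given in the sources used here, and log2 was taken from the range of 0.526 to 13.0. RMA can compress large ratios, and no detection call was available. The platform annotation gave 1 symbol to 23521 probe sets, several to 1814 and none used here to 16010. The Entrez identifiers of all 13 member probe sets matched RefSeq. Sel1L-deficient minus wildtype differences were fitted with limma 3.58.1 in R 4.3.3 (lmFit, eBayes, two-sided) on all 23521, with Benjamini-Hochberg adjustment and a threshold of 0.05; the script was tested on simulated data. Pathway and marker genes used the brightest probe set. Named genes were the members, Sel1l, up to 4 called genes of each list or else its 2 largest differences above the median of all values, the 5 genes most like Hpse and 1 defining gene per cell type. Ctsl, Ext1, Ext2, Sulf1, Sulf2, Gpc2, Gpc3, Gpc5, Sdcbp, Lrp4, Musk and Vegfa were added after their values were seen. Members and lists were chosen with earlier results of these data known. Only 3 arrays per genotype limit the precision. Alternatives are in the closing section.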

Additional observations from a re-analysis of the deposited data

How the results depend on the processing

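Over all named probe sets 20 were called higher and 32 lower. Leaving out 1 array gave 1 to 11 higher and 3 to 13 lower, the 4 arrays without Y-linked transcripts 0 and 0, all 41345 probe sets 0 and 3, and an intensity trend in the variance prior 31 and 57. For Hpse the difference ranged from -1.25 to -0.996 when 1 array was left out and was -1.14 on the 4 arrays. Its call was lost in those 7 fits and when all 41345 probe sets were adjusted together (-1.11), and held with the trend, the block, the covariate for Y-linked transcripts, either renormalization, the filter on dim probe sets and 1 probe set per gene. The first 7 fits had fewer arrays. The eighth had more tests and another variance prior, with an SE of 0.171 against 0.160, and which of these cost the call was not tested. With the replicate number as a block 14 were higher and 21 lower, 26 of the 35 shared with the 52, and Hpse stayed called. Hpse was chosen on this contrast, so a call that held in any of these fits adds no support. Deviations of same-numbered arrays correlated at 0.11, 0.07 and 0.20 across probe sets. Differently numbered arrays were not compared in this way, so these values cannot decide whether the numbers are pairs. The main fit took the arrays as unpaired. In the synthesis list 1 gene, Papss2, fell with the intensity trend (limma adjusted p = 0.0452), and 0 fell in the other fits. Of 189 member values under alternatives 13 turned sign, none of them called. Dim probe sets limit what can be said of Hpse2, Sdc1 and the second probe sets of Hpse and Gpc1.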
